A study of Mus musculus with 12 samples.

Results

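The genes described here are 10 genes of hepatic iron handling and of the first step of heme synthesis: the hepcidin genes Hamp and Hamp2, their upstream signal Bmp6 and the iron sensor Tfr2, the carriers and receptors Trf, Tfrc and Scara5, the iron exporter Slc40a1, and the enzymes Alas1 and Alas2. They were chosen by gene name, through the symbols of the array's annotation, from 18194 genes that had a probe set with a single symbol. Of the 10 genes, 9 had such probe sets, 20 in all. Trf, which encodes the plasma iron carrier transferrin, was covered only by a probe set that is also annotated to Srprb, so no level is given for it. The list was drawn up with earlier results from these arrays in view, among them the genotype difference of Scara5 on normal diet. The 2 genotype differences of Scara5 are therefore given as descriptions without a test, and the number of listed genes that passed a threshold is not evidence about iron handling as a whole. For the other listed genes p-values are given, adjusted over all genes tested. They may not be independent of how the list was chosen.

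Hepcidin is a small peptide hormone made by hepatocytes that binds ferroportin, the product of Slc40a1 and the only known cellular iron exporter of mammals, and causes its degradation. Its transcription rises when iron-loaded endothelial cells of the liver release BMP6, which signals through BMP receptors and SMAD proteins, and when interleukin-6 activates STAT3 during inflammation. Mice carry a second hepcidin gene, Hamp2, whose peptide has not been found to regulate iron as that of Hamp does. Cells take up iron through transferrin receptor 1 (Tfrc), whose mRNA is stabilised when cellular iron is low, and heme synthesis starts with 5-aminolevulinate synthase, in the ubiquitous form Alas1 or the erythroid form Alas2.

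Liver RNA came from adult females on the B6.129 background, either wild type (WT, Esr1+/+) or αERKO (Esr1-/-), that is, without a functional gene for estrogen receptor alpha. Each genotype received the NIH-31 diet (normal diet) or research diet 12492, with 60% of its calories as fat, for 2 weeks. The labels do not give the iron content of either diet, so a diet difference is one between the complete diets. Each of the 4 groups held 3 samples, each on an array of its own. The Esr1-/- genotype is present in every organ of the mouse, and the labels name neither the disrupting allele nor the hormone levels or cycle stage of the females. Nothing in the labels says that replicates were separate animals, so p-values measure only how these samples scatter, and that scatter may be technical.

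Levels are MAS5 signals, a linear intensity per probe set, from arrays scaled to the same trimmed mean of 500. Array medians ranged from 75.6 to 114, and signals near or below the median are unreliable. The genotype labels were borne out by Esr1, whose brightest probe set (1460591_at) read 1963 to 3930 in the WT samples and 586 to 885 in the αERKO samples. Hepatocyte markers were bright on all 12 arrays (mean log2 signal 15.26 to 15.86 over 6 genes). Some arrays stood apart through transcripts of other organs. Averaged over 10 pancreatic acinar genes, the log2 signal reached 12.43 and 9.85 in the WT high-fat replicates 3 and 2, 13.80 in the second WT replicate on normal diet and 13.43 in the first αERKO replicate on normal diet, and at most 6.45 elsewhere. That αERKO array and the second αERKO replicate on the high-fat diet also carried muscle transcripts (mean log2 signal over 13 genes 10.57 and 8.81, at most 7.26 elsewhere). In whole tissue, fewer cells of a type and less RNA per cell cannot be told apart.

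Hamp and Hamp2 are neighbours on mouse chromosome 7, and the bases upstream of their start sites are much alike. No transcript or probe sequences were compared, so this likeness does not show whether a probe set of 1 gene also binds RNA of the other. The 250 bases upstream of each start site are shown because those of Hamp hold the letters of a BMP-responsive element and of a STAT site. Both sequences are taken from RefSeq (GRCm38.p6, minus strand) and run 5′ to 3′ towards the start site. They lie at chr7:30944030-30944279 for Hamp and chr7:30924182-30924431 for Hamp2. Capitals mark the BMP-responsive element GGCGCC and the STAT site TTCTTGGAA, searched on both strands.
Hamp: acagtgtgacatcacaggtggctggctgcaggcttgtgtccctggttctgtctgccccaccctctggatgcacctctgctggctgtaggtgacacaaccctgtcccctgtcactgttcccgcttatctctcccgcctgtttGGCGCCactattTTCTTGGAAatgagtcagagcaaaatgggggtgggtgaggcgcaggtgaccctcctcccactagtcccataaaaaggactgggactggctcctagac
Hamp2: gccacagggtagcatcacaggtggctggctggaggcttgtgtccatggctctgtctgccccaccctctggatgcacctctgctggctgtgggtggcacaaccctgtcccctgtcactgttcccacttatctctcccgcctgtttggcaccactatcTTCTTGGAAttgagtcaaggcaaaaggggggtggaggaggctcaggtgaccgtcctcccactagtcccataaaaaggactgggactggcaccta
Of 247 aligned bases, 227 were identical (91.9%). The 20 substitutions included G145A, counted from 1 at the 5′ end of the Hamp sequence shown, which falls inside the BMP-responsive element, so that GGCGCC was found in Hamp and GGCACC stood at that place in Hamp2. The STAT site held no substitution. Its first base lay 97 bases before the start site in Hamp and 94 bases before it in Hamp2. Among 32851 mouse promoter windows of 300 bases, 11.9% held GGCGCC and 0.417% held TTCTTGGAA. Of the 10 genes, 7 had promoter entries, with 11 windows in all. GGCGCC was found in 2 of those windows (Hamp and Tfrc) and TTCTTGGAA in 2 (Hamp and Hamp2). A match of letters describes these windows and is not a measured binding site.

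Hamp, the hormone gene itself, was among the brightest liver transcripts and did not pass the test in any comparison. Its signal (1419196_at) was 43196, 44197 and 48678 in WT on normal diet, 39014, 44864 and 39611 in WT on the high-fat diet, 49449, 35491 and 38014 in αERKO on normal diet, and 41102, 43275 and 32612 in αERKO on the high-fat diet. The 4 groups overlapped, and the 3 αERKO samples on normal diet alone spanned most of the range of the 12 values. The αERKO minus WT difference was -0.16 ± 0.13 on the log2 scale on normal diet (standard error, n = 3 per group, limma adjusted p = 0.659) and -0.09 ± 0.13 on the high-fat diet (limma adjusted p = 0.816). The diet difference was -0.14 ± 0.13 in WT and -0.07 ± 0.13 in αERKO (limma adjusted p = 0.824 and 0.912). A second probe set (1419197_x_at) gave overlapping groups as well, between 31816 and 47822.

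The probe set of Hamp2 was lower in αERKO livers on both diets and was higher in αERKO livers after the high-fat diet than after normal diet. Its signal (1436643_x_at) was 22476, 23278 and 21883 in WT on normal diet and 32387, 22670 and 32653 in WT on the high-fat diet. In αERKO livers it was 8835, 5687 and 5189 on normal diet and 16598, 12014 and 11206 on the high-fat diet. All 6 αERKO values lay below all 6 WT values, and within αERKO all 3 high-fat values lay above all 3 normal-diet values, whereas the WT groups overlapped.

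On normal diet the αERKO group stood at 0.284 of the WT group (log2 difference -1.82 ± 0.20, n = 3 per group, limma adjusted p = 0.000137). On the high-fat diet it stood at 0.454 of it (-1.14 ± 0.20, limma adjusted p = 0.00660). The normal-diet call held in 25 of 25 alternative settings. The high-fat call held in 22, and was lost when arrays were centred on their median (-1.04, limma adjusted p = 0.0692), without the intensity trend (limma adjusted p = 0.0508), and when the dim second probe set was averaged in (-0.14, limma adjusted p = 0.839).

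Within αERKO, the high-fat diet went with a 2.04-fold higher Hamp2 signal (1.03 ± 0.20, n = 3 per group, limma adjusted p = 0.0386), and in WT the difference was 0.36 ± 0.20 (limma adjusted p = 0.676). The αERKO call was close to the threshold and held in 14 of 25 alternatives. It was lost when WT normal replicate 1 or 2, WT high-fat replicate 1, αERKO normal replicate 2 or 3, or αERKO high-fat replicate 1 or 2 was left out, with differences of 0.86 to 1.09 and limma adjusted p of 0.0528 to 0.163. The diet difference was not shown to depend on genotype: the interaction was 0.68 ± 0.28 (limma adjusted p = 0.802, unadjusted 0.0287). The suffix _x_at marks probes that may match more than 1 transcript. Whether Hamp is such a transcript was not examined, and how much Hamp RNA the Hamp2 value holds was not tested. The other Hamp2 probe set (1456289_at) did not exceed the median of any of the 12 arrays, with signals of 4.9 to 85.6 in overlapping groups.

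**Figure D1:**
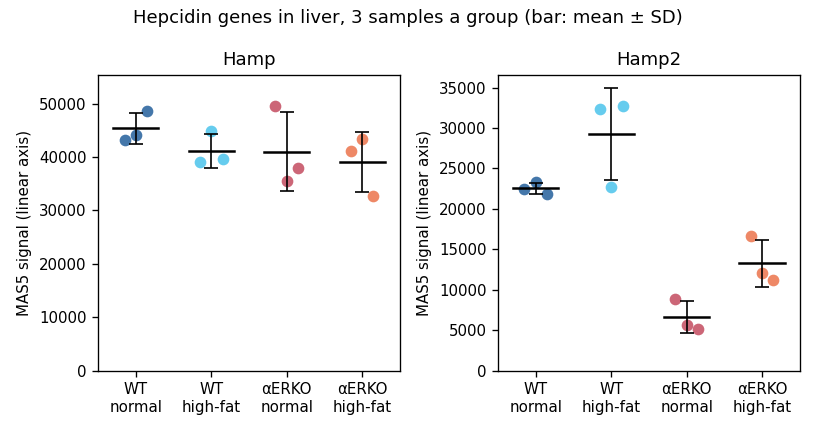
MAS5 signal (linear axis) of Hamp (1419196_at) and Hamp2 (1436643_x_at) in the 4 groups; points are the 3 samples of each group, horizontal lines the mean and bars the SD. The 4 groups overlap for Hamp, while for Hamp2 all 6 αERKO samples lie below all 6 WT samples and the αERKO high-fat samples lie above the αERKO normal-diet samples.

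Among the regulators of hepcidin, neither the ligand Bmp6 nor the transferrin sensor Tfr2 passed the test. Bmp6, which the liver's sinusoidal endothelium makes when iron is high, gave signals of 97.1, 155 and 299 in WT on normal diet and 214, 194 and 248 in WT on the high-fat diet. In αERKO it gave 164, 165 and 140 on normal diet and 104, 132 and 129 on the high-fat diet. On the high-fat diet the 3 αERKO values lay below the 3 WT values, at a log2 difference of -0.77 ± 0.31 (n = 3 per group, limma adjusted p = 0.238). Within αERKO the high-fat values lay below the normal-diet values (-0.33 ± 0.31, limma adjusted p = 0.779). The mean log2 signal of 11 sinusoidal endothelial markers moved in the same direction on the high-fat diet, from 9.83 to 10.03 in WT to 9.63 to 9.82 in αERKO, with 0 of the 11 genes called. Its part in the Bmp6 values was not tested.

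Tfr2, a receptor through which hepatocytes sense iron-loaded transferrin, was bright. Its signal (1459994_x_at) was 21499, 21645 and 26364 in WT on normal diet, 22532, 23726 and 20025 in WT on the high-fat diet, 22258, 23276 and 24150 in αERKO on normal diet, and 19338, 18134 and 20748 in αERKO on the high-fat diet. On this probe set the diets did not overlap within αERKO alone, with the high-fat group lower by a log2 difference of -0.26 ± 0.10 (n = 3 per group, limma adjusted p = 0.342). The genotype differences were 0.01 ± 0.10 on normal diet and -0.19 ± 0.10 on the high-fat diet (limma adjusted p = 0.978 and 0.400). On a second probe set (1425381_a_at), which read 5416 to 7230 over the 12 arrays, the high-fat diet was lower without overlap in both genotypes. The differences there were -0.22 ± 0.09 in WT and -0.21 ± 0.09 in αERKO (limma adjusted p = 0.567 and 0.477 over all probe sets). The brighter probe set carries the suffix _x_at, so other transcripts may add to its value, which was not tested.

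The wider list of hepcidin regulators held 26 genes, among them the BMP co-receptor Hjv, the protease Tmprss6 that cleaves it, the receptor subunits Bmpr1a, Bmpr2 and Acvr1, the SMAD proteins and their targets Id1 and Atoh8, and the interleukin-6 receptor genes and Stat3. Of these, 21 were measured, and limma called 0 in each of the 5 comparisons. The median log2 genotype difference was -0.00 on normal diet and 0.05 on the high-fat diet, against -0.05 and -0.03 over all 12264 genes tested. Atoh8, a transcription factor that SMAD proteins induce, was the gene of this list with the lowest p in the diet comparison in WT, and it is dim and scattered. Its signal was 125, 282 and 155 in WT on normal diet and 16.6, 67.3 and 18.3 in WT on the high-fat diet, and in αERKO it was 14.4, 178 and 62.7 on normal diet and 384, 147 and 124 on the high-fat diet. The WT high-fat values lay below the WT normal-diet values (-2.09 ± 0.62, n = 3 per group, limma adjusted p = 0.366), and the interaction was 3.52 ± 0.88 (limma adjusted p = 0.447).

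**Figure D2:**
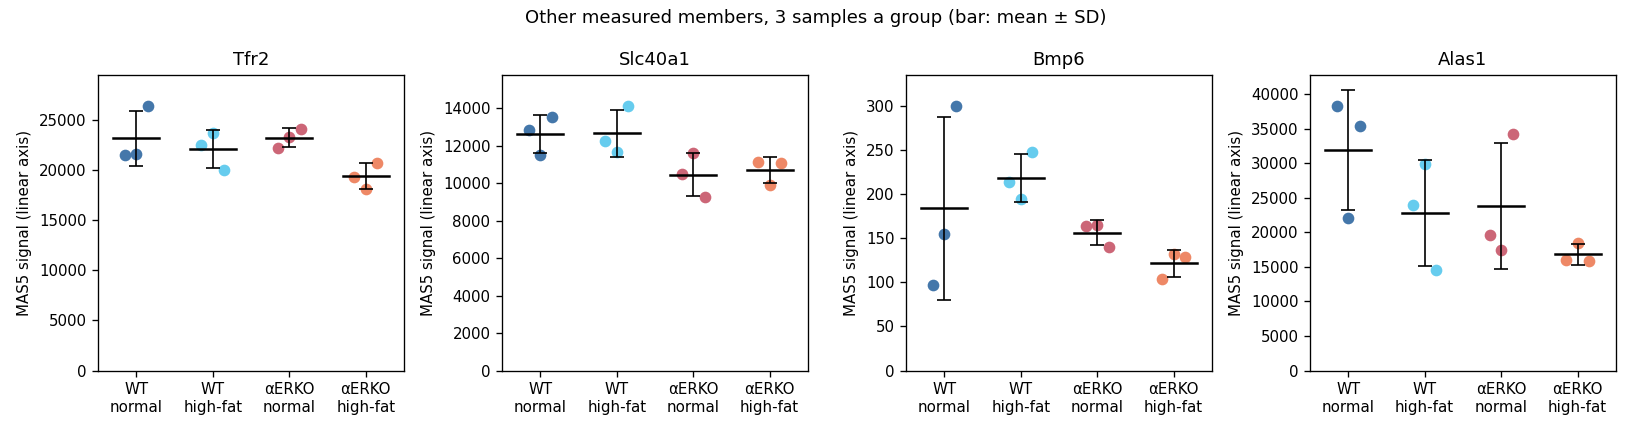
MAS5 signal (linear axes, different ranges) of Tfr2, Slc40a1, Bmp6 and Alas1 in the 4 groups; points are the 3 samples of each group, horizontal lines the mean and bars the SD. None of the 4 genes passed the test in any comparison, and Slc40a1 and Bmp6 are lower in αERKO than in WT without overlap on the high-fat diet.

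Tfrc, transferrin receptor 1, through which cells take up transferrin-bound iron, was higher in αERKO than in WT livers on the high-fat diet. Its signal (1452661_at) was 652, 827 and 581 in WT on normal diet, 518, 528 and 867 in WT on the high-fat diet, 883, 767 and 800 in αERKO on normal diet, and 2205, 1419 and 1167 in αERKO on the high-fat diet. The 3 αERKO high-fat samples were the highest of the 12, and the other 3 groups overlapped.

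On the high-fat diet the αERKO group was 2.45-fold higher than WT (log2 difference 1.29 ± 0.24, n = 3 per group, limma adjusted p = 0.00963), while on normal diet the difference was 0.26 ± 0.24 (limma adjusted p = 0.706). Within αERKO the high-fat samples lay above the normal-diet samples (0.90 ± 0.24, limma adjusted p = 0.142), and in WT the diet difference was -0.13 ± 0.24 (limma adjusted p = 0.929). The interaction was 1.04 ± 0.33 with an unadjusted p of 0.00771 and a limma adjusted p of 0.744, so a dependence of the diet difference on genotype was not shown. The high-fat genotype call held in 21 of 25 alternatives. It was lost without WT high-fat replicate 1 (1.17, limma adjusted p = 0.0610) and without WT high-fat replicate 2 (1.18, limma adjusted p = 0.0573). Without the 4 arrays that carried pancreatic transcripts, which left a single WT high-fat sample, the difference was 1.54. Averaging in the other 5 Tfrc probe sets brought it to 0.23 (limma adjusted p = 0.749). Those 5 probe sets, 3 of them array control probes for the 3′, middle and 5′ parts of the transcript, read 2.5 to 125, and 4 of them never exceeded the array median. Probe set 1422966_a_at, which passed the filter, had the opposite sign on the high-fat diet (-0.37 ± 0.32, limma adjusted p = 0.650 over all probe sets). The 4 dim ones gave 0.11, 0.42, 0.66 and -0.76 in a fit without the filter.

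Scara5, a scavenger receptor that takes up ferritin, showed the widest genotype gap of the listed genes, and this gap is a reason the gene was listed. Its signal (1451204_at) was 9.0, 23.9 and 4.3 in WT on normal diet and 6.1, 44.3 and 28.0 in WT on the high-fat diet. In αERKO it was 1245, 161 and 726 on normal diet and 199, 701 and 93.2 on the high-fat diet. All 6 WT values lay below their array's median, and all 6 αERKO values lay above it, but they scattered widely among themselves.

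The αERKO minus WT difference on the log2(signal + 16) scale was 4.33 ± 0.73 on normal diet and 2.72 ± 0.73 on the high-fat diet, which corresponds to 20.2-fold and 6.60-fold. Over the 25 alternatives these differences ranged from 2.47 to 5.59 and from 1.48 to 3.54. Because the WT signals were near background, these folds are uncertain. The highest αERKO value on each diet came from the array that carried muscle transcripts. Without those 2 arrays the differences were 3.73 and 1.98. Without the 4 arrays with pancreatic transcripts they were 4.01 and 3.54, the latter against a single remaining WT high-fat sample. Scara5 did not pass the test for diet in either genotype (0.51 ± 0.73 in WT and -1.10 ± 0.73 in αERKO, limma adjusted p = 0.901 and 0.663) or for the interaction (-1.61 ± 1.03, limma adjusted p = 0.859). A second Scara5 probe set (1431336_at) did not separate the genotypes: it read 33.8 to 114 in WT and 74.4 to 117 in αERKO, above the array median on 7 of 12 arrays. Of 14 listed markers of fibroblasts and mesothelium, cell types known to carry Scara5 in other tissues, 6 passed the filter. The mean log2 signal of all 14 was 6.36 to 6.60 in WT and 6.27 to 6.36 in αERKO on normal diet. On the high-fat diet it was 6.58 to 6.62 in WT and 6.35 to 6.57 in αERKO, lower without overlap. Markers that failed the filter lay near or below the array median, so background enters this mean. The part of these cell types in the Scara5 values was not tested.

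Slc40a1, the ferroportin gene, was bright and slightly lower in αERKO, without passing the test. Its signal (1417061_at) was 12823, 11502 and 13507 in WT on normal diet, 12228, 11689 and 14092 in WT on the high-fat diet, 10484, 11588 and 9287 in αERKO on normal diet, and 11146, 9896 and 11084 in αERKO on the high-fat diet. The genotypes overlapped by a single sample on normal diet and did not overlap on the high-fat diet. The differences were -0.27 ± 0.11 and -0.24 ± 0.11 (n = 3 per group, limma adjusted p = 0.323 and 0.307), and the diet differences were 0.01 ± 0.11 in WT and 0.04 ± 0.11 in αERKO (limma adjusted p = 0.996 and 0.939). Macrophages are a known major site of ferroportin. The mean log2 signal of 12 Kupffer cell and macrophage markers, all measured, was 10.40 to 10.49 in WT and 9.73 to 10.31 in αERKO on normal diet, and 10.20 to 10.63 in WT and 9.90 to 10.13 in αERKO on the high-fat diet, with 0 of the 12 genes called. Its part in the Slc40a1 values was not tested. The second Slc40a1 probe set (1448566_at) read 2066 to 3419 in overlapping groups.

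Of 16 further genes of iron uptake, export and reduction, 13 were measured. Steap2, a metalloreductase that reduces iron, was lower in αERKO on the high-fat diet on its brightest probe set. No other gene of the list passed the test in any comparison. The Steap2 signal (1428636_at) was 320, 431 and 319 in WT and 198, 171 and 210 in αERKO on the high-fat diet, where the groups did not overlap, and 449, 308 and 407 in WT and 345, 280 and 285 in αERKO on normal diet. The log2 difference on the high-fat diet was -0.83 ± 0.19 (n = 3 per group, limma adjusted p = 0.0408). This call held in 8 of 25 alternatives, and leaving out single arrays gave differences of -0.90 to -0.69, called in 4 of 12 cases. On each of the other Steap2 probe sets the genotypes overlapped on the high-fat diet. For example, 1442359_at read 236, 360 and 228 in WT and 106, 125 and 240 in αERKO there. The 7 measured genes of iron storage and sensing, among them the ferritin chains Fth1 and Ftl1 and the iron regulatory protein genes Aco1 and Ireb2, gave 0 calls in each comparison, with log2 genotype differences of -0.08 to 0.27 on normal diet and -0.24 to 0.25 on the high-fat diet.

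**Figure D3:**
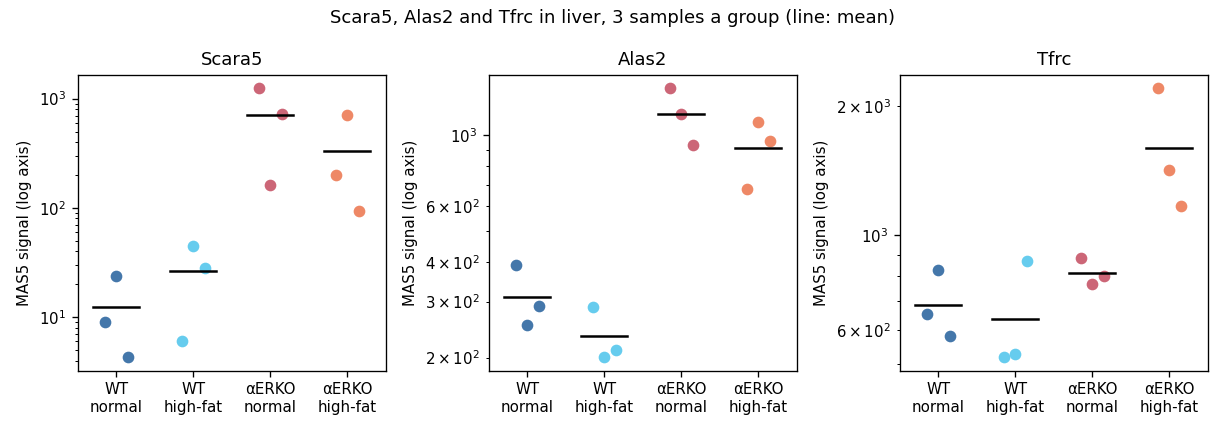
MAS5 signal on a log axis of Scara5 (1451204_at), Alas2 (1451675_a_at) and Tfrc (1452661_at) in the 4 groups; points are the 3 samples of each group and horizontal lines the mean. The αERKO samples lie above all WT samples for Scara5 and Alas2, and for Tfrc the 3 αERKO high-fat samples are the highest of the 12.

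Heme synthesis starts with 5-aminolevulinate synthase, which has 2 genes. Alas2 was called for genotype and Alas1 was not, and the 2 genes were not tested against each other. Alas1, the form that supplies hepatic heme for cytochromes P450, varied among samples of a group and did not pass the test. Its signal (1424126_at) was 38200, 22074 and 35424 in WT on normal diet, 23887, 29873 and 14591 in WT on the high-fat diet, 19664, 17419 and 34252 in αERKO on normal diet, and 15986, 18490 and 15900 in αERKO on the high-fat diet. All 4 comparisons between groups overlapped. The estimates on this probe set were below 0 (genotype -0.45 ± 0.28 on normal diet and -0.38 ± 0.28 on the high-fat diet, diet -0.51 ± 0.28 in WT and -0.44 ± 0.28 in αERKO), with limma adjusted p between 0.562 and 0.669. On a second probe set (1455282_x_at), which read 4011 to 17479, the genotype differences were -0.00 ± 0.42 on normal diet and -0.09 ± 0.42 on the high-fat diet, and the diet differences were -0.71 ± 0.42 in WT and -0.79 ± 0.42 in αERKO (limma adjusted p of 0.592 or higher over all probe sets).

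Alas2, the erythroid form, was higher in αERKO livers on both diets. Its signal (1451675_a_at) was 390, 252 and 290 in WT on normal diet, 288, 201 and 211 in WT on the high-fat diet, 1407, 1168 and 936 in αERKO on normal diet, and 680, 1104 and 962 in αERKO on the high-fat diet. All 6 αERKO values lay above all 6 WT values, while the diets overlapped within each genotype. The difference was 3.64-fold on normal diet (log2 1.86 ± 0.22, n = 3 per group, limma adjusted p = 0.000323) and 3.71-fold on the high-fat diet (1.89 ± 0.22, limma adjusted p = 0.000291). Both calls held in 25 of 25 alternatives, with differences of 1.59 to 2.03 and of 1.59 to 2.09. The diet differences were -0.39 ± 0.22 in WT and -0.36 ± 0.22 in αERKO (limma adjusted p = 0.696 and 0.626), and the interaction was 0.03 ± 0.31 (limma adjusted p = 0.993).

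Markers of red cells and their precursors were compared with the Alas2 values. Of 15 listed markers, 9 had a probe set and 4 were measured. The mean log2 signal of all 9 was 5.94 to 6.74 in WT and 6.10 to 6.76 in αERKO on normal diet. On the high-fat diet it was 6.34 to 6.58 in WT and 6.09 to 6.75 in αERKO. Markers that failed the filter lay near or below the array median, so background enters these means. Of the 4 measured genes, 0 were called higher in αERKO, and Klf1, an erythroid transcription factor, was called lower on the high-fat diet. Klf1 (1418600_at) read 577, 504 and 344 in WT and 150, 231 and 248 in αERKO there. On normal diet it was not called, but it was also lower without overlap, at 416, 437 and 493 in WT and 245, 216 and 256 in αERKO. Ank1, an ankyrin of the red cell membrane, was not called, but its values on the high-fat diet, 129, 92.6 and 150.6 in WT and 203, 170 and 193 in αERKO, did not overlap. The median log2 genotype difference of the 4 measured genes was -0.34 on normal diet and 0.18 on the high-fat diet. The part of red cells or their precursors in the Alas2 values was not tested. The 4 probe sets annotated to several globin genes, looked up after their values were seen, overlapped between genotypes on both diets.

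Downstream of this step, the 11 measured genes of the remaining heme pathway, from Alad to the ferrochelatase gene Fech, gave 0 calls in each of the 5 comparisons. Their log2 genotype differences ran from -0.29 to 0.27 on normal diet and from -0.15 to 0.45 on the high-fat diet. Of the 11, 5 and 6 lay above 0 for genotype on normal and high-fat diet. For diet, 6 lay above 0 in WT and 9 in αERKO, with medians of 0.04 and 0.16. The medians over all genes were -0.00 and 0.02. The share of all genes above 0 was not counted, so nothing is read from these counts. Among 14 measured genes of heme transport and breakdown, Abcg2, a membrane exporter of porphyrins, heme and urate, was higher in αERKO on both diets. Its signal was 2372, 2166 and 2163 in WT on normal diet and 1718, 2054 and 2001 in WT on the high-fat diet, and in αERKO 4706, 4219 and 3894 on normal diet and 4570, 4990 and 4156 on the high-fat diet. All αERKO values lay above all WT values, at 0.93 ± 0.11 on normal diet (n = 3 per group, limma adjusted p = 0.000390) and 1.24 ± 0.11 on the high-fat diet (limma adjusted p = 4.38e-05), and both calls held in 25 of 25 alternatives.

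Bach1, a repressor that heme removes from DNA, was lower after the high-fat diet in αERKO. Its signal (1440831_at) was 4219, 3155 and 3613 on normal diet and 2239, 2082 and 2403 on the high-fat diet in αERKO, and 3305, 2607 and 2390 on normal diet and 3035, 2729 and 2655 on the high-fat diet in WT. The αERKO diets did not overlap (-0.70 ± 0.14, n = 3 per group, limma adjusted p = 0.0466), and the WT diets did (0.03 ± 0.14, limma adjusted p = 0.972). The αERKO call held in 9 of 25 alternatives, and in 3 of the 12 in which a single array was left out (-0.80 to -0.59). The interaction was -0.73 ± 0.20 (limma adjusted p = 0.534). A second Bach1 probe set (1449311_at) read 472, 397 and 528 on normal diet and 250.8, 344 and 363 on the high-fat diet in αERKO.

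In mitochondria, where iron enters heme and iron-sulfur clusters, 13 of 16 listed genes were measured. Glrx5, a glutaredoxin that hands on iron-sulfur clusters, was higher in αERKO on the high-fat diet, and no other gene of the list was called in any comparison. Its signal was 10615, 8579 and 10628 in WT and 16164, 15311 and 12185 in αERKO on the high-fat diet, without overlap, and 10073, 10549 and 11972 in WT and 9884, 12081 and 9735 in αERKO on normal diet. The high-fat difference was 0.55 ± 0.13 (n = 3 per group, limma adjusted p = 0.0493), a call at the threshold that held in 8 of 25 alternatives and in 4 of the 12 in which a single array was left out (0.44 to 0.67).

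**Figure D4:**
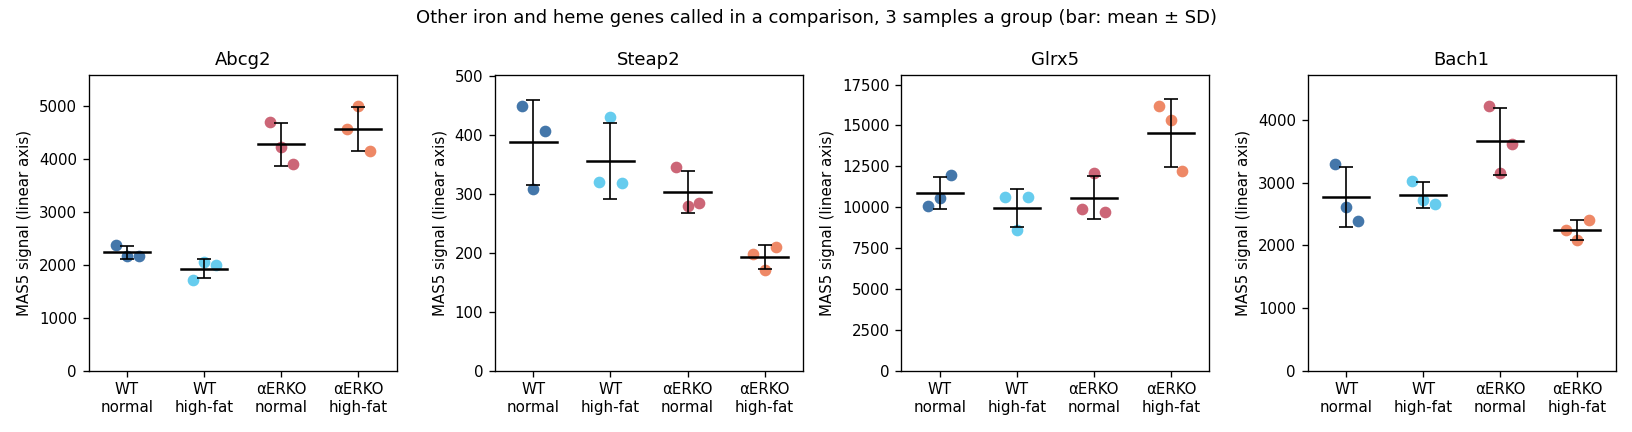
MAS5 signal (linear axes, different ranges) of Abcg2, Steap2, Glrx5 and Bach1, the 4 genes of the wider iron and heme lists that passed the test in a comparison; points are the 3 samples of each group, horizontal lines the mean and bars the SD. All αERKO samples lie above all WT samples for Abcg2, whereas Steap2 and Glrx5 separate the genotypes on the high-fat diet and Bach1 separates the diets within αERKO.

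Scara5 is left out of the genotype counts that follow, which therefore cover 8 genes, while the diet and interaction counts cover all 9 measured genes. For genotype on normal diet limma called 2 of the 8 (Alas2 higher, Hamp2 lower in αERKO), where 1.22% of all 12264 genes were called, 0.587% higher and 0.636% lower. It called 3 of the 8 for genotype on the high-fat diet (Tfrc and Alas2 higher, Hamp2 lower in αERKO), with a background of 1.98%, 1.10% higher and 0.881% lower. For diet it called 0 in WT (background 0.0734%, and 0 at an unadjusted p under 0.05) and 1 in αERKO (Hamp2 higher on the high-fat diet, background 0.481%, 0.334% higher and 0.147% lower, and 3 at an unadjusted p under 0.05). For the interaction it called 0 (background 0%, and 2 at an unadjusted p under 0.05). Fitted probe set by probe set, the same probe sets were called for genotype, again with Scara5 left out (background 0.756% on normal diet and 1.38% on the high-fat diet), and none was called for diet in WT (background 0.0278%), for diet in αERKO (background 0.199%), where Hamp2 missed the threshold (limma adjusted p = 0.0517), or for the interaction (background 0%). Since the genes were picked with such results known, nothing is read from these shares. The genotype comparisons on the 2 diets use different samples, but each shares samples with the diet comparisons. The median log2 difference of the 9 genes, Scara5 included, was -0.09 and -0.19 for genotype on normal and high-fat diet and -0.07 and -0.26 for diet in WT and αERKO, beside -0.05, -0.03, -0.00 and 0.02 over all genes.

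Groups did not overlap for 2 of the 8 genes for genotype on normal diet (Alas2 and Hamp2), where 15.8% of all genes did not overlap, and for 5 of the 8 on the high-fat diet, where 22.5% did not. The 5 were Tfrc and Alas2, higher in αERKO, and Hamp2, Slc40a1 and Bmp6, lower in αERKO. For diet, 0 of the 9 separated in WT (14.3% of all genes) and 4 in αERKO (16.7% of all genes), with Hamp2 and Tfrc higher and Tfr2 and Bmp6 lower on the high-fat diet. Over the wider lists, 79 of 94 genes were measured. Of these, 1 was called higher for genotype on normal diet, 2 higher and 1 lower on the high-fat diet, 0 for diet in WT, 1 lower for diet in αERKO and 0 for the interaction. Besides Atoh8, the lowest p for diet in WT belonged to Blvrb, a biliverdin reductase (-0.38 ± 0.12, limma adjusted p = 0.402), and Ltf, lactoferrin (-1.67 ± 0.60, limma adjusted p = 0.455). For the interaction the 3 lowest belonged to Atoh8, Bach1 and Glrx5 (0.59 ± 0.18, limma adjusted p = 0.729).

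**Figure D5:**
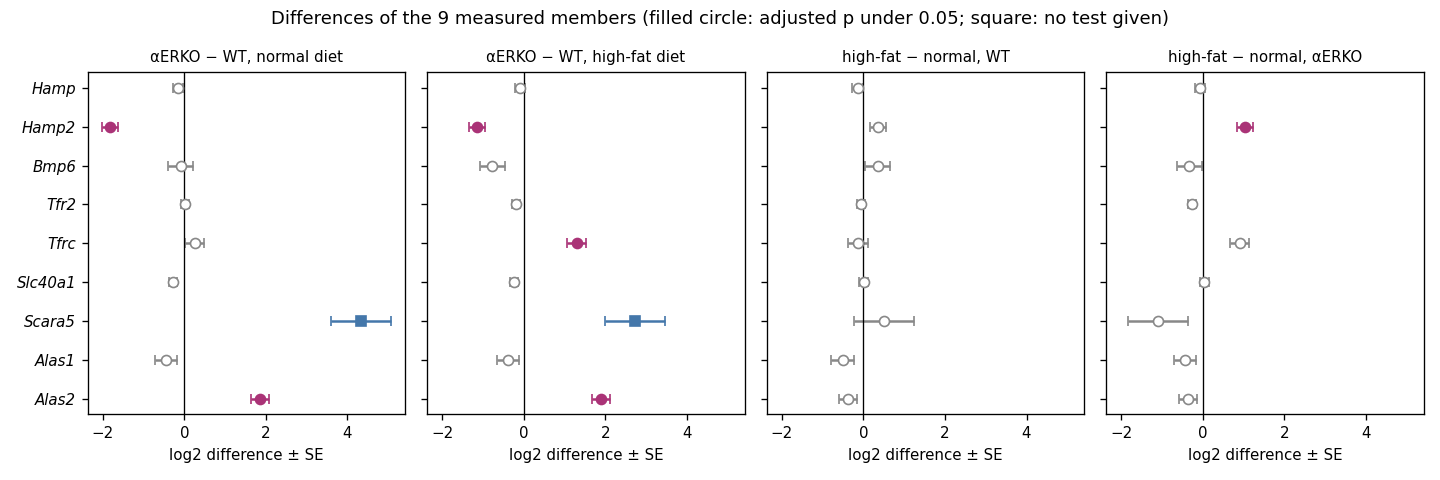
Log2 difference of the 9 measured genes in the 4 comparisons between groups, as named on each panel; points are estimates from the model over all genes and bars their standard errors. Filled circles mark an adjusted p under 0.05, open circles the rest, and squares the genotype differences of Scara5, which are shown without a test; Hamp2 lies below 0 and Alas2 above 0 for genotype on both diets.

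The genes outside the list whose log2 levels over the 12 arrays were most like those of 4 listed genes are given by Pearson correlation, as a description. The arrays share their scaling, and a shared genotype split alone yields a high value, so the correlation within the 6 arrays of each genotype stands beside it. For Hamp2 the nearest were Hao2 (0.96 over all arrays, 0.34 within WT and 0.92 within αERKO), Slc22a27 (0.95, 0.47 and 0.88), Tafa2 (0.94, 0.82 and 0.76), Rtn4 (0.94, 0.41 and 0.93) and Cyp2b13 (0.94, 0.73 and 0.88). For Scara5 they were Ldhd (0.92, 0.50 and 0.65), Zfp445 (0.89, -0.30 and 0.84), Cyp4a12a (0.89, 0.61 and 0.33), Ttc33 (0.88, 0.19 and 0.75) and Cyp2d9 (0.88, 0.00 and 0.72). The likeness to Hamp2 and Scara5 was thus higher over all arrays than within either genotype for all 10 genes.

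For Hamp, whose genotypes overlapped, the nearest genes were Glud1 (0.92 over all arrays, 0.94 within WT and 0.94 within αERKO), Nop58 (0.90, 0.72 and 0.99), Srsf3 (0.90, 0.83 and 0.93), Rwdd4a (0.89, 0.87 and 0.93) and Ddx49 (0.88, 0.89 and 0.89). For Alas1 they were Plec (0.87, 0.84 and 0.97), Hgf (0.87, 0.96 and 0.90), Fbrs (0.87, 0.92 and 0.88), Oplah (0.85, 0.86 and 0.82) and Usp19 (0.85, 0.83 and 0.82). For these 10 genes the correlation was also 0.72 or higher within each genotype.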

How the data were processed

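Each of the 12 liver samples was hybridised to an Affymetrix 3′ array of its own, in a single colour. Per the submitters' processing notes, Affymetrix Expression Console and MAS5 (versions not given in the sources used) were used, and the authors deposited 1 linear intensity per probe set and array. The 45101 intensities of an array, trimmed by 2% at each end, averaged 500 on every array. MAS5 treats each array on its own, so signals near background scatter widely on a log scale. Probe sets were named through the supplied platform annotation (34958 with 1 symbol, 932 with several, 9211 not listed). A gene was represented by its brightest probe set (highest mean over the 12 arrays), and genes above the array median on at least 3 of 12 arrays were tested (12264 of 18194). Another fit took all 21558 probe sets that passed this filter. Of the 20 probe sets of the listed genes, 12 lay above the array median on all 12 arrays, 15 on at least 3 and 5 on fewer.

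Values were log2(signal + 16), so differences of dim genes are understated. In R 4.3.3, limma 3.58.1 fitted a mean per group to all 12 arrays (8 residual and 5.85 prior degrees of freedom, intensity trend). The test was two-sided, with Benjamini-Hochberg adjustment over all genes tested and a call at an adjusted p under 0.05. A run on simulated data, with normal scatter taken from the fit itself, served as a check of the code. It does not show how well the model suits these arrays. Errors of signals are SD, and those of log2 differences are standard errors. The median standard error was 0.202 between groups and 0.285 for the interaction, and the number of arrays limits the precision. Pearson correlations of log2 values were 0.939 to 0.963 within groups, 0.933 to 0.963 between groups, and 0 pairs of arrays were identical.

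The listed genes, the 6 wider gene lists and the marker lists were chosen with earlier results of these data known. From the wider lists, genes called in a comparison are named, or the 3 of lowest p where none was called, and for Hamp, Hamp2, Scara5 and Alas1 the 5 genes of highest Pearson correlation. Alternatives covered the pseudocount, filter, normalization, probe set choice, variance model, samples in the fit, array weights, the replicate number as a block, and leaving out arrays. Genes are identified by symbol and probe set, since no genome build is named for the array; the promoter sequences carry RefSeq's own build.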

Additional observations from a re-analysis of the deposited data

Results flagged for a closer look

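Il6ra, which encodes the interleukin-6 receptor through which inflammation raises hepcidin, had differences of opposite sign between the diets in the 2 genotypes on its brightest probe set (1452416_at), with no overlap between diets in either. The log2 difference between high-fat and normal diet was 0.12 in WT and -0.39 in αERKO, and neither passed the test (limma adjusted p = 0.848 and 0.216). Its log2 means were 10.62 ± 0.03 and 10.73 ± 0.02 in WT on normal and high-fat diet, and 10.72 ± 0.20 and 10.33 ± 0.13 in αERKO (SD, n = 3 per group). The test of the difference itself, the interaction, was -0.51 ± 0.17 with a limma adjusted p of 0.779, so it missed the threshold. On the second probe set (1422270_a_at) the differences were 0.55 in WT and -0.19 in αERKO, and the αERKO diets overlapped.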

How the results depend on the processing

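Over 25 alternatives, with the untested genotype differences of Scara5 left out, 0 of the 6 called differences of the measured genes changed sign, and 1 of the 37 uncalled ones was called in some alternative. The count for diet in αERKO, 1 in the report, was 0 with arrays centred on their median, with the mean of all probe sets of a gene, without the intensity trend and from a fit of the compared groups alone, and 2 with array quality weights. Without single arrays it was 0 to 1. For genotype on the high-fat diet the count of 3 fell to 1 with the mean of all probe sets, which adds the dim probe sets of Hamp2 and Tfrc. Probe sets of these genes past the threshold, counted in each comparison, numbered 6, and 3 without the intensity trend. The 6 include that of Scara5 on normal diet, a difference that is a description and not a test. The causes were not tested. Over all genes, the alternatives gave 71 to 158 calls against 150 for genotype on normal diet. On the high-fat diet they gave 108 to 944 against 243, the fit that left a single WT high-fat sample set aside. For diet they gave 0 to 21 against 9 in WT and 12 to 187 against 59 in αERKO. For the interaction they gave 0 to 2 against 0. Centring on the median moved the all-gene median genotype difference on normal diet from -0.05 to 0.09 and the share of calls higher in αERKO from 48.0% to 59.6%. Same-numbered samples did not deviate together (correlation -0.30 to 0.21 over 18 pairs, median -0.03). These correlations alone cannot show whether same-numbered samples were handled together. With the replicate block the counts without Scara5 for genotype were 2 and 3 on normal and high-fat diet, 0 and 1 for diet in WT and αERKO and 0 for the interaction, as without it, and Steap2 and Glrx5 were not called (limma adjusted p = 0.0634 and 0.0812). Signals near or below the array median, as of Scara5 in WT, Atoh8 and Bmp6, limit what these arrays can show.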
